A study of Mus musculus with 24 samples.

Results

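SIM-A9 is an immortalised line of mouse microglia, the resident macrophages of the brain, and the 80 genes described here are those whose transcripts were lowest, relative to untreated cells, after 2 h of bacterial lipopolysaccharide (LPS). They were chosen from a table of 54838 genes by their measured values. A gene was taken if it is annotated as protein-coding, had a Control mean of at least 3 CPM, counts scaled to a common library size, and had an LPS mean of at most 50% of the Control mean. Of 9664 protein-coding genes at or above that Control level, 89 met the ratio, which is 0.921%. Of these, 9 were left out by symbol, namely Cxcr4, Rgs2, Tlr5, Cnr2, Osgin1, Dusp7, Dusp6, Rubcnl and Klf10. All 80 passed the low-count filter and are among the 13116 genes tested. Because the Control and LPS libraries chose these genes, their levels in LPS are given as a description without a test.

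The series compared how probes made for use in the brain act on these cells, with LPS as the positive control for inflammation. Every group had 3 libraries of poly-A RNA from SIM-A9 cells that were moved to serum-free medium 2 h before exposure, in wells of 270 uL that received 30 uL of the agent, and that were lysed 2 h after it. Control cells were untreated. The agents were LPS, single-walled carbon nanotubes labelled (GT)6 SWCNT, a name for nanotubes wrapped in a short DNA strand of guanine and thymine repeats, and carboxylated nanotubes (COOH SWCNT). The others were 3 dyes, namely Fura-2, which reports calcium, DiBASC2 and Di-2-ANEPEQ, and an adeno-associated virus (AAV). Doses are not given in the sources used here, so the agents were not compared at matched doses. For DiBASC2, the name in the treatment field ends in another digit in each library, so the group was taken from the title. The labels do not say whether the 3 libraries of a group came from separate cultures, so p-values measure the spread between these samples, which may be technical. Sequencing index numbers run in consecutive blocks per group, and library order cannot be told apart from group.

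Total counts lay between 17364272 and 29259221 per library. A member gene held between 55 and 5178 counts in a Control library and between 7 and 2046 in an LPS library. Of 14 microglia and macrophage markers, 13 reached 1 CPM in some library, with Csf1r at 507 CPM and P2ry12, a marker of microglia in the brain, at 2.35 CPM in Control, and Gpr34 was under 1 CPM in every library. The neuron, astrocyte, fibroblast and lymphocyte markers were under 1 CPM in every library, as were 4 of 5 oligodendrocyte markers, Mbp being the exception at 4.13 CPM in Control. Of 4 endothelial markers, Kdr was the one above 1 CPM, at 131 CPM in Control and 94.7 CPM in LPS. Tnf went from 35.6 CPM in Control to 1144 CPM in LPS and Il1b from 9.12 to 443 CPM. In such bulk RNA, fewer cells that make a transcript and less of it per cell cannot be told apart.

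When LPS binds its receptor complex, macrophages switch on inflammatory genes within minutes to hours, and a separate set of transcripts falls over the same period. Transcripts that fall quickly after a stimulus have to be turned over quickly, and many of them encode transcription factors, receptors, ubiquitin ligases and brakes on growth-factor signalling. Resting macrophages keep several of these brakes on when nutrients or growth factors are scarce, partly through FOXO transcription factors that the kinase AKT switches off.

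The promoters of 3 of the genes are shown because these genes were among the lowest in both nanotube groups relative to Fura-2, a comparison that uses no Control or LPS library. Each is the 250 bases before the transcription start in RefSeq (build GRCm38.p6), written 5′ to 3′ on the gene's strand, with the searched motifs in capitals. A gene named Fam78a also ranked among the 4 lowest, but its window lies largely inside the GENCODE transcript and is not shown. Bmf is read from the minus strand of chr2:118549687-118549936, Nr0b2 from the plus strand of chr4:133553126-133553375 and Lpar5 from the plus strand of chr6:125067670-125067919.
Bmf: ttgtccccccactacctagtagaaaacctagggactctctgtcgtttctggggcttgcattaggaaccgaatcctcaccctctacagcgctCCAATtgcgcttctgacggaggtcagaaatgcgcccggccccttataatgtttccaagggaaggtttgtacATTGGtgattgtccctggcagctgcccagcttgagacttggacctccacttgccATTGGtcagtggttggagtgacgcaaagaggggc
Nr0b2: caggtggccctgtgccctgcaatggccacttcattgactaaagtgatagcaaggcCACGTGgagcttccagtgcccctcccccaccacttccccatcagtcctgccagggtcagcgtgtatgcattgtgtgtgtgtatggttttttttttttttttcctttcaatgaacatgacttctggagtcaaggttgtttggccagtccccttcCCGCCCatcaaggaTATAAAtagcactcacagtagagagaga
Lpar5: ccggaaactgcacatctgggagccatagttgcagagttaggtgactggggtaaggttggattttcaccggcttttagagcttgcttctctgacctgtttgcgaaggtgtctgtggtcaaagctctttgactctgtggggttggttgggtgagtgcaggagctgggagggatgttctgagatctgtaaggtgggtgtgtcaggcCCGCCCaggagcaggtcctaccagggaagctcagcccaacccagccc
The capitals in the Bmf promoter are CCAAT boxes, which lie 159 bases before the start on the gene's strand and 88 and 34 bases before it on the other strand. Nr0b2 holds a TATA box 28 bases before the start, a GC box at 42 and an E-box at 195. Lpar5 holds a GC box 47 bases before the start. Matches of letters are a description and show no binding.

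Of the 80 genes, 60 had an entry in the RefSeq promoter table, and 7735 of the other protein-coding genes at the same Control level had one. The 10 motifs were searched on both strands. The TATA box (TATAAA) was found in 13.3% of the 60 and in 5.62% of the others, and the AP-1 site (TGANTCA) in 8.33% and 3.75%. The GC box (GGGCGG) was found in 46.7% and 62.0%, and the ETS site (CGGAAG) in 16.7% and 29.4%. The remaining motifs were the CCAAT box (CCAAT, 40% and 36.9%), the CRE (TGACGTCA, 1.67% and 3.05%), the E-box (CACGTG, 8.33% and 8.99%), the PU.1 site (GAGGAAGT, 3.33% and 2.70%), the FOXO site (TGTTTAC, 3.33% and 1.97%) and the NF-kB site (GGANTTTCC, 0 of 60 and 0.970%). TATA and AP-1 letters were thus more frequent and GC box and ETS letters less frequent among the 60 promoters. No test was made of these shares, and some motifs rest on very few promoters.

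Gene structure, which the rule did not use, is described here without a test. Their median number of exons was 4.5, against 10 in the 9584 other protein-coding genes at that Control level, and 21 of 80 (26.25%) had at most 2 exons, against 5.09%. Their median 3' untranslated region measured 1948.5 bases, against 956 bases, while the coding sequence was slightly shorter, at 1210.5 and 1398 bases, and the whole transcript was longer, at 3744 and 2984 bases. The median GC content was 53.2% against 50.2%. They were also less abundant, with a median Control level of 12.1 CPM against 46.1 CPM, although the rule did use the Control level. The structural traits were not compared at matched abundance. The AU-rich heptamer TATTTAT, a letter pattern found in unstable messages, was present in 24 of 79 of their 3' untranslated regions (30.4%) and in 28% of the others. Per kilobase it occurred 0.218 times among these genes and 0.287 times among the others. Longer 3' ends thus came without a higher density of this heptamer.

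Of the 80 genes, 12 are on chromosome 11, among 828 protein-coding genes at the Control minimum there (1.45%). The share was higher on chromosome 13, with 7 of 360 (1.94%), and chromosome 6, with 8 of 444 (1.80%). It was low on chromosome 9, with 1 of 540 (0.185%), and chromosome 5, with 2 of 639 (0.313%). Before the exclusions by symbol, 0.921% of such genes on all chromosomes met the rule. These shares rest on small counts and were not tested. Some of the genes on chromosome 11 lie within 100000 bases of each other. The Polycomb genes Cbx2 and Cbx8 are 5034 bases apart. Other neighbours are 9930111J21Rik1 and 9930111J21Rik2, which are 36475 bases apart, and 2810021J22Rik and Zfp39, 4864 bases apart. The exons of 30 of the 80 overlap those of another gene. Since the strand setting of the counting is not given in the sources used here, reads of such pairs may be mixed. Besides the genes marked further on, the 30 include Fbxo32, Txnip, P2ry1, Irf2bp2, Klhl21, Kbtbd11 and Cebpa. Lyl1, which overlaps Nfix, and Map3k12, which overlaps Pcbp2, are also among them. The similarly named 9930111J21Rik genes may share reads as well.

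**Figure D1:**
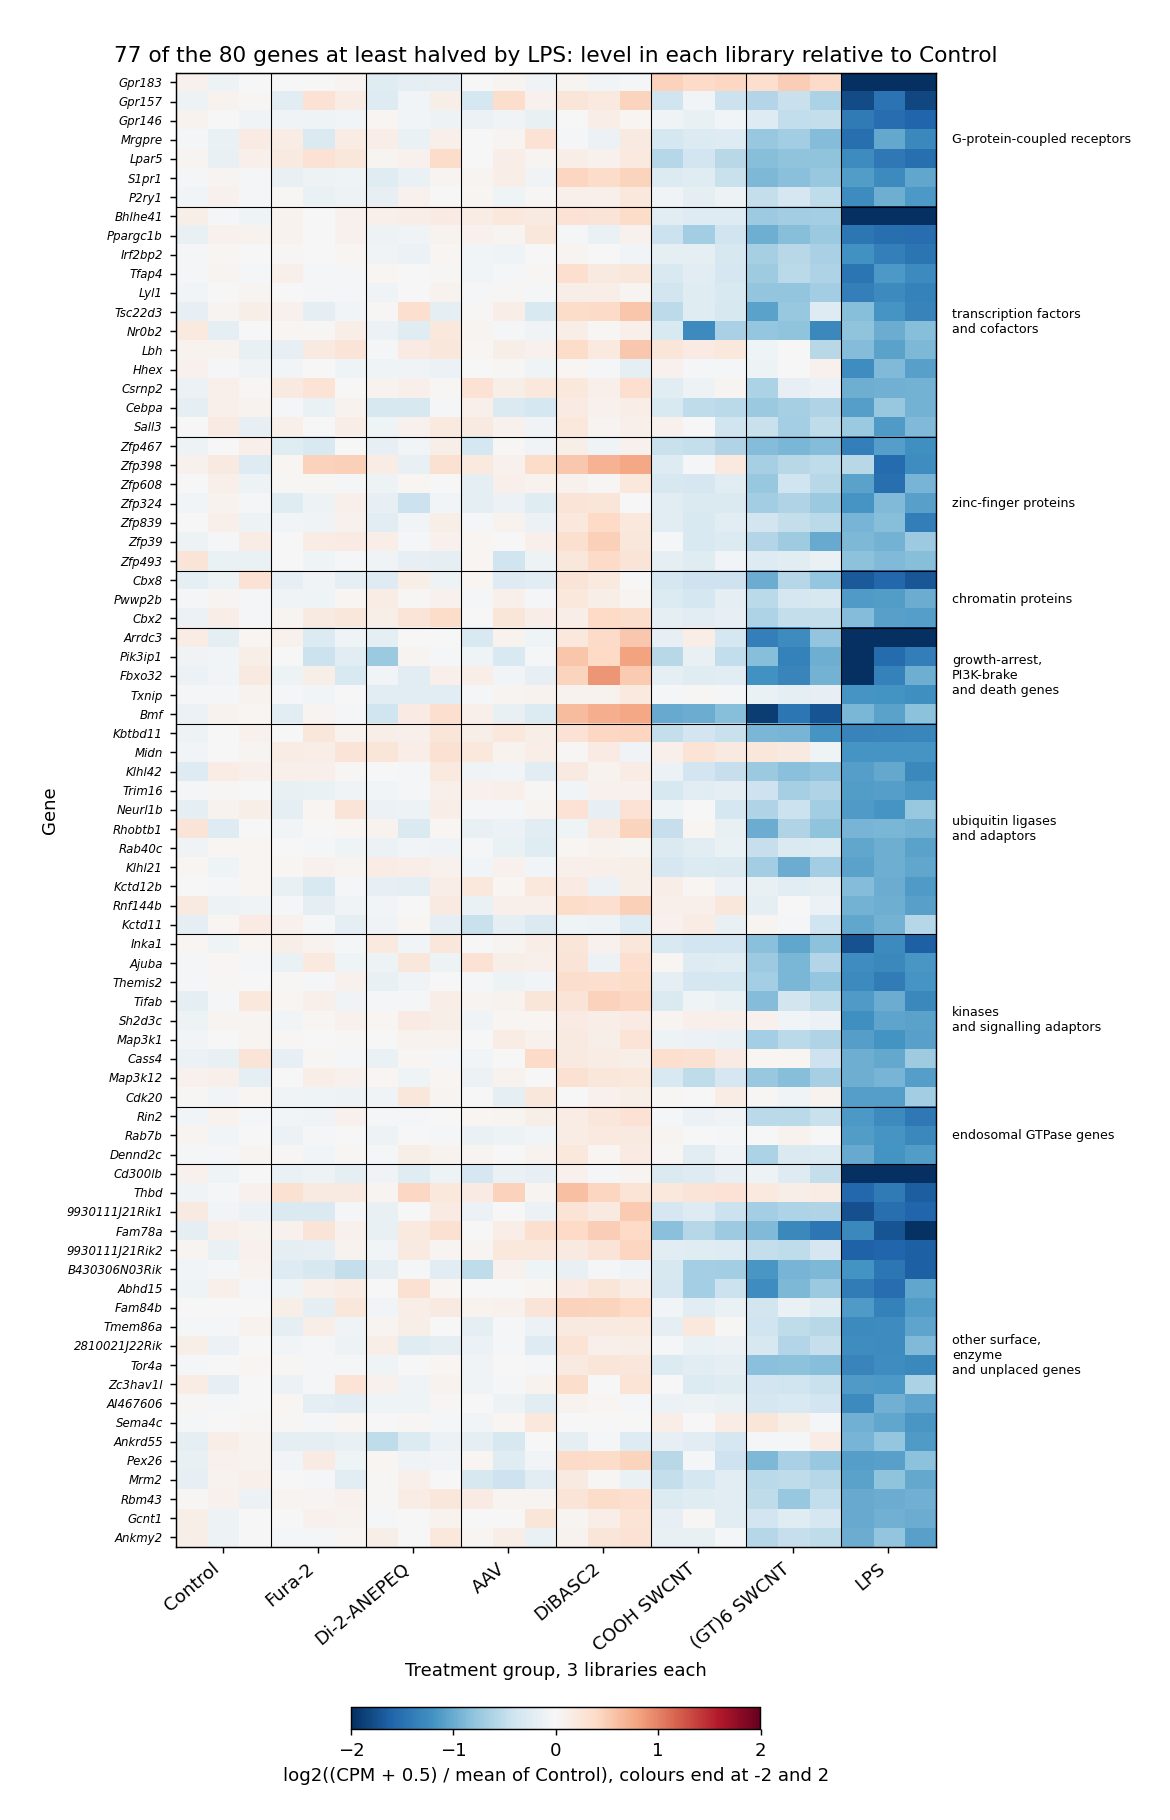
Each row is one of 77 of the 80 genes, ordered by functional group, and each column one of the 24 libraries. Colour is the log2 ratio of CPM, with 0.5 CPM added, to the Control mean. The LPS columns are low by construction of the set, the (GT)6 SWCNT columns are low for most rows and the DiBASC2 columns are slightly above Control for most rows.

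The set was first followed as a whole, with edgeR's quasi-likelihood test fitted on 13116 genes and a call at a Benjamini-Hochberg adjusted p under 0.05. Each treatment was compared with Control, whose libraries the rule used, so calls against Control are given as a description. (GT)6 SWCNT, COOH SWCNT and DiBASC2 were also compared with Fura-2, whose libraries the rule did not use. In (GT)6 SWCNT against Fura-2, 64 of the 80 genes were lower and 1 higher, where 11.8% of all tested genes were lower and 10.8% higher. Among the protein-coding genes with the same Control minimum, 15% were lower. The median log2 fold change of the 80 was -0.64, beside -0.01 over all tested genes. In 64 of the 80 every (GT)6 SWCNT library lay below every Fura-2 library, against 18.5% of all tested genes. Against Control, the counts were 62 lower and 1 higher, with backgrounds of 10.5% and 9.9%.

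COOH SWCNT moved fewer of the genes. Against Fura-2, 27 of 80 were lower and 2 higher, where 7.26% of all tested genes were lower and 6.83% higher, and the median log2 fold change was -0.21. Of the protein-coding genes at the Control minimum, 9.21% were lower. In 37 of the 80 every COOH SWCNT library lay below every Fura-2 library, against 14.3% of all tested genes. Against Control, 34 were lower and 1 higher, with backgrounds of 10.6% and 9.39%. A direct test of the nanotubes found 51 of the 80 lower in (GT)6 SWCNT than in COOH SWCNT and 0 higher, with backgrounds of 9.48% and 11.9%, and 12% lower among the protein-coding genes at the Control minimum. In 63 of the 80 the libraries of (GT)6 SWCNT lay below those of COOH SWCNT without overlap, against 17.8% of all tested genes. At an unadjusted p under 0.05 the direct comparison gave 59 lower and 1 higher, where 16.2% of all tested genes were lower and 16.8% higher.

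DiBASC2 went the other way. Against Fura-2, 0 of 80 were lower and 23 higher, where 3.01% of all tested genes were lower and 1.36% higher, and the median log2 fold change was 0.21. Of the protein-coding genes at the Control minimum, 1.54% were higher. In 48 of the 80 every DiBASC2 library lay above every Fura-2 library, against 9.32% of all tested genes. Against Control, 0 were lower and 22 higher, with backgrounds of 3.64% and 1.82%. At an unadjusted p under 0.05, 0 of the 80 were lower and 43 higher against Fura-2 (8.81% and 7.14% of all tested genes), and 0 lower and 36 higher against Control (10.5% and 8.18%). The count against Control fell to 14 without Control replicate 1. With Di-2-ANEPEQ in place of Fura-2 as the comparator, which was added after the data had been seen, 26 genes were higher in DiBASC2 and 0 lower, with backgrounds of 3.47% and 5.48%. With AAV as the comparator they were 28 and 0, with backgrounds of 5.63% and 8.3%. (GT)6 SWCNT had 63 of the 80 lower and 1 higher against Di-2-ANEPEQ, with backgrounds of 14.1% and 12.9%, and 63 lower and 2 higher against AAV, with backgrounds of 13.5% and 12.1%. COOH SWCNT had 30 lower and 2 higher against Di-2-ANEPEQ, where 7.01% of all tested genes were lower and 7.25% higher. Against AAV it had 32 lower and 1 higher, where 9.67% of all tested genes were lower and 8.92% higher.

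For Fura-2, Di-2-ANEPEQ and AAV against Control, the shares of the 80 called were near or below those of all tested genes. In Fura-2 against Control, 0 of 80 were lower and 0 higher by edgeR, where 0.213% and 0.0381% of all tested genes were called, and at an unadjusted p under 0.05 they were 2 and 4, beside 5.88% and 4.88% of all tested genes. DESeq2 gave 0 lower in this comparison as well. In Di-2-ANEPEQ against Control, 2 were lower and 0 higher, with backgrounds of 2.39% and 0.686%, and 5 and 6 at an unadjusted p under 0.05, beside 9.03% and 7.45%. In AAV against Control, 0 were lower and 1 higher, with backgrounds of 3.16% and 1.84%, and 5 and 4 at an unadjusted p under 0.05, beside 10.8% and 9.9%.

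**Figure D2:**
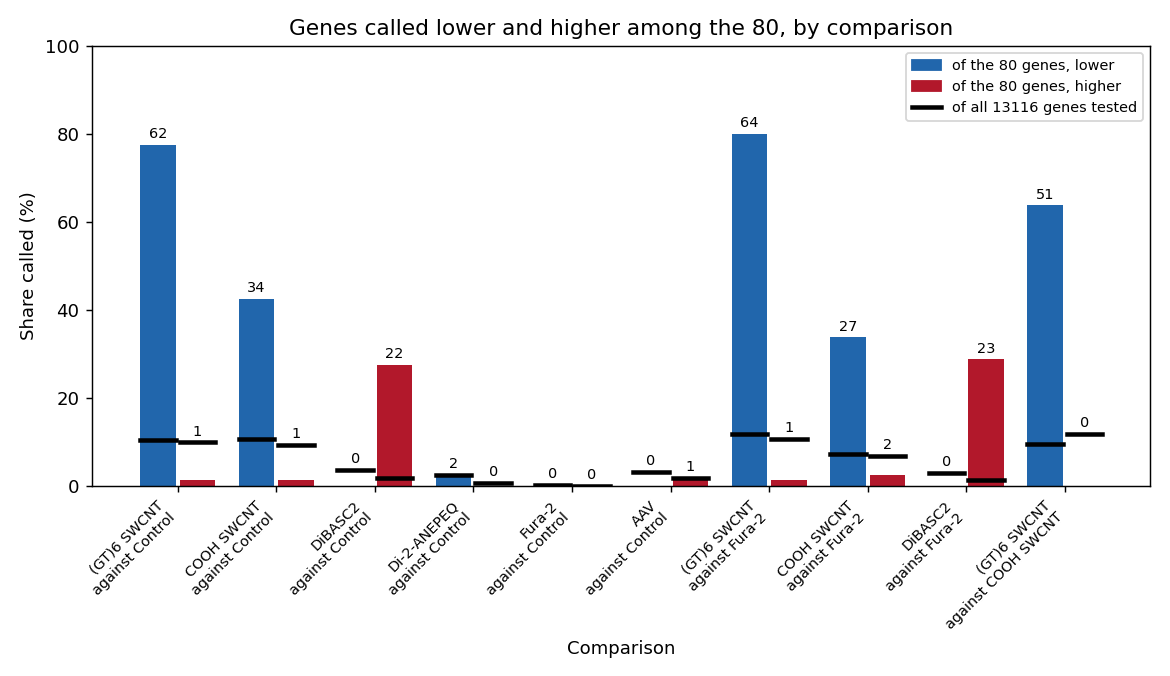
Bars give the percentage of the 80 genes called lower or higher in each comparison, beside the percentage of all 13116 tested genes. In (GT)6 SWCNT against Fura-2 the bar for the 80 stands for 64 genes lower, and in DiBASC2 against Fura-2 for 23 genes higher.

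**Figure D3:**
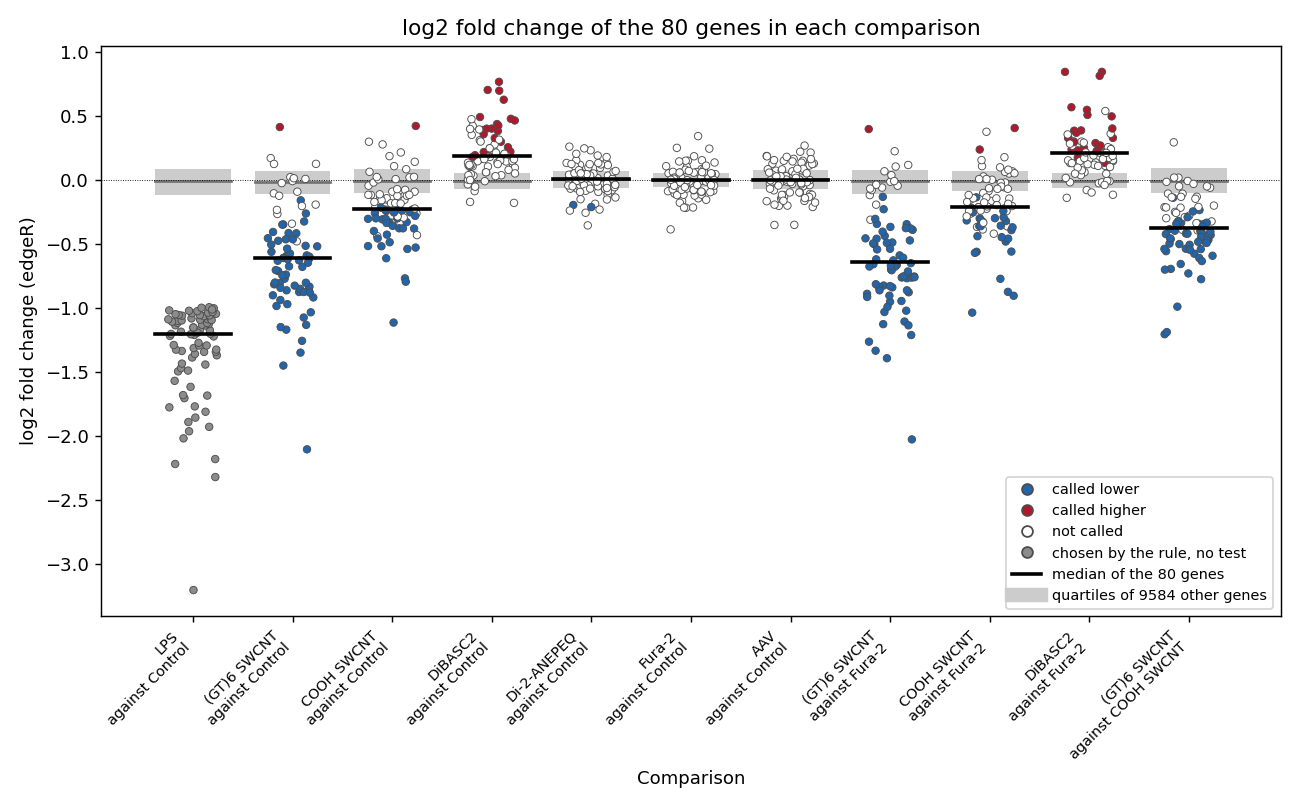
Points are the log2 fold changes of the 80 genes in each comparison, coloured by call except in LPS, and the grey band marks the quartiles of the 9584 other protein-coding genes at the same Control level. The LPS points lie at or below -0.995 because the rule chose them there, those of (GT)6 SWCNT against Fura-2 have a median of -0.64 and those of DiBASC2 against Fura-2 a median of 0.21.

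Growth-arrest, PI3K-brake and death genes were a small group of 5. Arrdc3 and Txnip are alpha-arrestins, of which Arrdc3 steers membrane receptors to ubiquitin ligases and Txnip restrains glucose uptake and thioredoxin. Pik3ip1 is a membrane inhibitor of PI3K, Fbxo32 is the F-box protein atrogin-1, and Bmf is a BH3-only protein that promotes apoptosis. Against Fura-2, (GT)6 SWCNT lowered 5 of 5, COOH SWCNT lowered 1 of 5, and DiBASC2 raised 5 of 5. They were also lower in (GT)6 SWCNT than in COOH SWCNT in 5 of 5. Over the whole set, 64 of 80 were lower in (GT)6 SWCNT, 27 lower in COOH SWCNT and 23 higher in DiBASC2 against Fura-2. Between the nanotubes, 51 of 80 were lower in (GT)6 SWCNT. Among all tested genes these shares were 11.8%, 7.26%, 1.36% and 9.48%. Each functional group below is to be read beside these counts of the whole set. The group of 5 was assembled from the set after its members were known. It mixes functions, and Fbxo32 also belongs to the wider list of ubiquitin ligases and adaptors.

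Arrdc3 (chr13:80883384-80896042, GRCm38) was the gene with the lowest ratio of LPS to Control, at 10.8%. Its Control libraries held 5.06, 3.87 and 4.65 CPM and its LPS libraries 0.598, 0.537 and 0.327 CPM. In (GT)6 SWCNT the libraries held 1.44, 1.59 and 2.40 CPM, in COOH SWCNT 3.95, 4.96 and 3.41, in Fura-2 4.80, 3.62 and 4.20, and in DiBASC2 5.29, 6.02 and 6.80. The (GT)6 SWCNT libraries lay between those of LPS and the rest without overlap, and every DiBASC2 library lay above Control and Fura-2. Against Fura-2 the log2 fold change was -1.26 ± 0.19 (SE; adjusted p = 2.7e-06) in (GT)6 SWCNT and 0.51 ± 0.15 (adjusted p = 0.0447) in DiBASC2. In COOH SWCNT it was -0.06, with a 95% interval from -0.39 to 0.27.

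Bmf (chr2:118528757-118549687) was the member moved most by the nanotubes. Control libraries held 3.90, 4.51 and 4.38 CPM, LPS libraries 2.01, 1.76 and 2.2 CPM, and (GT)6 SWCNT libraries 0.780, 1.25 and 0.937 CPM. The (GT)6 SWCNT libraries thus lay below even those of LPS. COOH SWCNT libraries held 1.86, 1.90 and 2.15 CPM, in the range of LPS, and DiBASC2 libraries 6.90, 7.36 and 7.62 CPM, above those of every other group. Against Fura-2, whose libraries held 3.63, 4.42 and 4.16 CPM, the log2 fold changes were -2.03 ± 0.22 in (GT)6 SWCNT (adjusted p = 1.54e-09), -1.04 ± 0.18 in COOH SWCNT (adjusted p = 7.75e-05) and 0.84 ± 0.15 in DiBASC2 (adjusted p = 0.000218). (GT)6 SWCNT was lower than COOH SWCNT by a log2 fold change of -0.99 ± 0.25 (adjusted p = 0.00308).

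Pik3ip1 (chr11:3330401-3342971) had 6.04, 6.13 and 7.0 CPM in Control and 1.2, 1.86 and 2.15 CPM in LPS. It had 3.33, 2.19 and 2.99 CPM in (GT)6 SWCNT, 4.17, 5.71 and 4.38 in COOH SWCNT, 6.33, 4.62 and 5.39 in Fura-2, and 9.63, 8.55 and 11.5 in DiBASC2. The DiBASC2 libraries were the highest of any group and those of (GT)6 SWCNT were below Fura-2 without overlap. Against Fura-2 it fell in (GT)6 SWCNT (log2 fold change -0.95 ± 0.20, adjusted p = 0.000382) and rose in DiBASC2 (0.84 ± 0.16, adjusted p = 0.000678). Its difference between the nanotubes, -0.73 ± 0.21 (adjusted p = 0.00902), lost its call without COOH SWCNT replicate 2 (adjusted p = 0.0668) or (GT)6 SWCNT replicate 2 (adjusted p = 0.0881). An exon of Pik3ip1 overlaps the annotated gene Gm12592.

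Fbxo32 (chr15:58175879-58214932) had 3.19, 3.36 and 4.06 CPM in Control, 0.380, 1.07 and 1.54 in LPS, and 1.23, 1.12 and 1.58 in (GT)6 SWCNT. It had 3.0, 2.91 and 2.92 CPM in COOH SWCNT, 3.23, 3.87 and 2.77 in Fura-2, and 4.95, 6.90 and 5.26 in DiBASC2. LPS and (GT)6 SWCNT libraries overlapped each other and lay below those of the remaining groups. The log2 fold change against Fura-2 was -1.34 ± 0.23 in (GT)6 SWCNT (adjusted p = 2.68e-05) and 0.81 ± 0.17 in DiBASC2 (adjusted p = 0.00277), the latter at an adjusted p of 0.0596 without DiBASC2 replicate 2.

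Txnip (chr3:96557957-96561883) was the most abundant of the 80. It had 218, 220 and 236 CPM in Control, 99.0, 97.7 and 95.7 with LPS, 205, 199 and 200 with (GT)6 SWCNT and 221, 217 and 223 with Fura-2. Its fall in (GT)6 SWCNT against Fura-2 was small, at a log2 fold change of -0.13 ± 0.04 (adjusted p = 0.00972), and its value in COOH SWCNT was 0.01 with a 95% interval from -0.07 to 0.08. DiBASC2 libraries held 235, 235 and 256 CPM (0.13 ± 0.04 against Fura-2, adjusted p = 0.0336). Di-2-ANEPEQ libraries held 195, 192 and 195 CPM, below every Control library, and Txnip was one of the 2 members lower in that dye against Control (-0.21 ± 0.04, adjusted p = 0.000974).

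**Figure D4:**
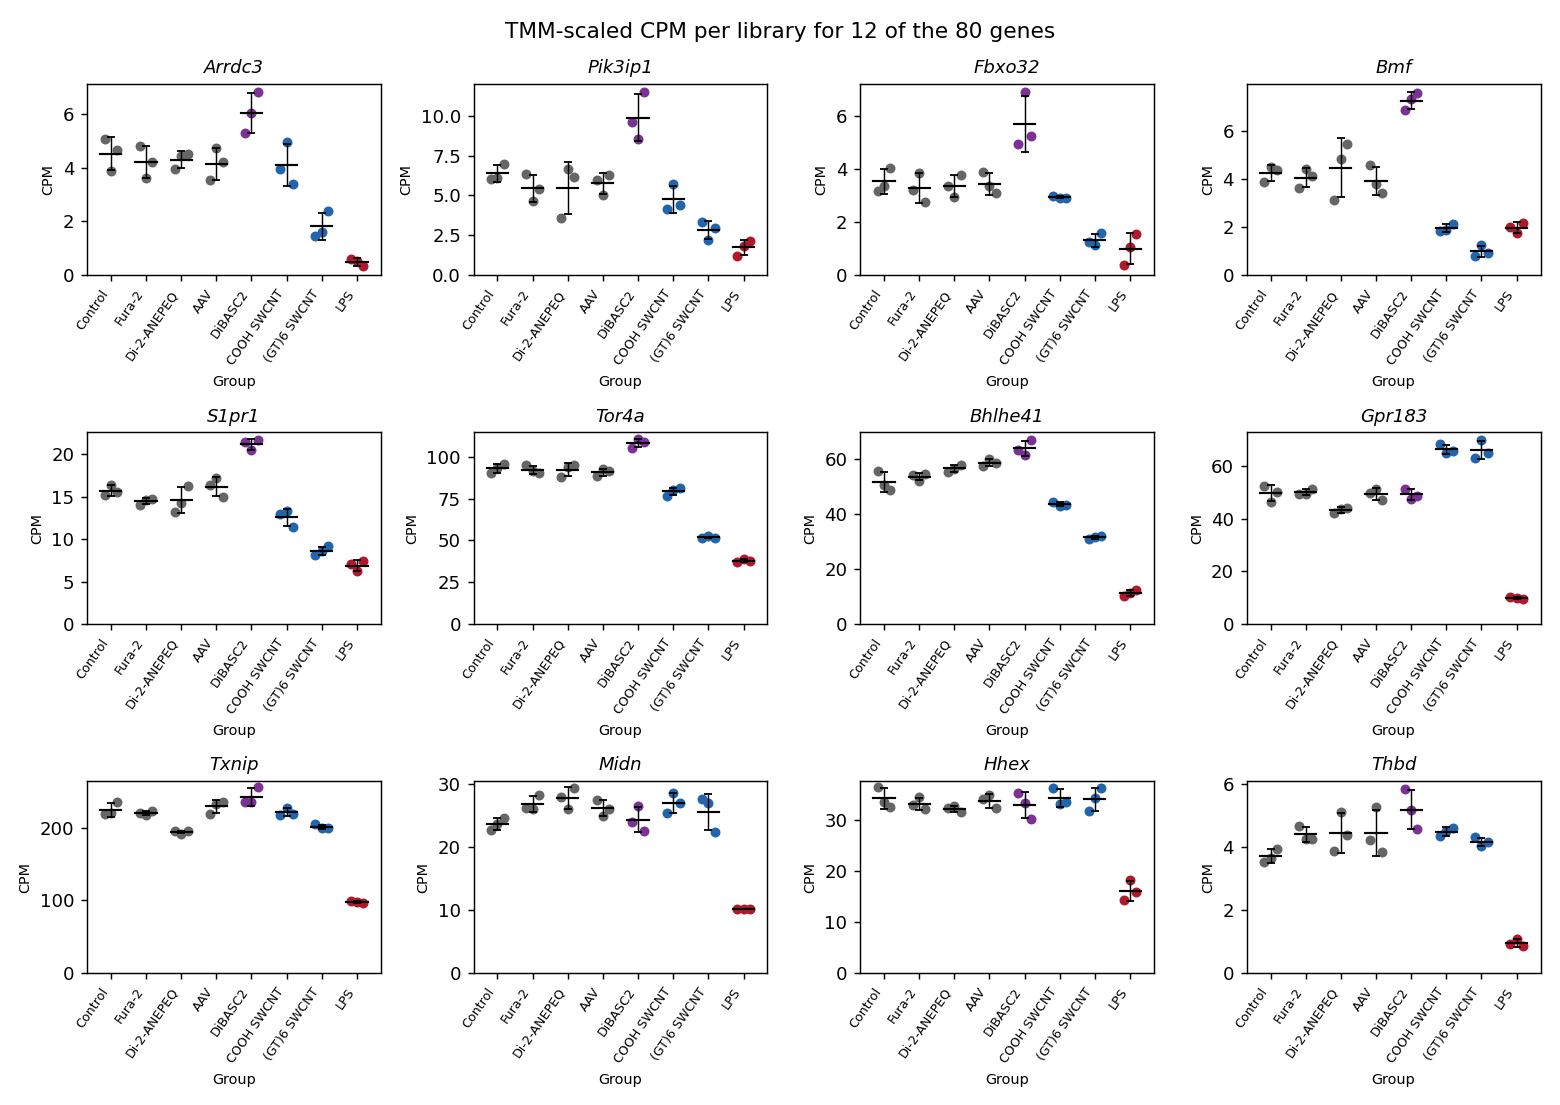
CPM of 12 of the genes in each of the 24 libraries, on linear axes that start at 0, with points for libraries and bars for the group mean ± SD. Bmf, Pik3ip1 and Fbxo32 are low in (GT)6 SWCNT and highest in DiBASC2, Gpr183 is raised to 66.2 CPM by (GT)6 SWCNT while it is 9.94 CPM in LPS, and Midn and Hhex are low in LPS with (GT)6 SWCNT near Control.

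Receptors that couple to G proteins made up 7 of the 80. Against Fura-2, 6 of 7 fell in (GT)6 SWCNT and 1 rose (11.8% and 10.8% of all tested genes). In COOH SWCNT 1 fell and 1 rose (7.26% and 6.83%), and in DiBASC2 0 fell and 1 rose (3.01% and 1.36%). Gpr183 (chr14:121952551-121965195), the oxysterol receptor EBI2 that guides immune cells, was the exception to the direction of the set. It had 52.8, 46.6 and 50.1 CPM in Control and 10.3, 9.86 and 9.63 CPM in LPS. In (GT)6 SWCNT it had 63.2, 69.9 and 65.3 CPM and in COOH SWCNT 68.4, 65.0 and 66.1 CPM, above every library of the other groups. Against the Fura-2 libraries, which held 49.4, 49.6 and 51.6 CPM, it rose by a log2 fold change of 0.40 ± 0.05 in (GT)6 SWCNT (adjusted p = 6.95e-08) and 0.41 ± 0.05 in COOH SWCNT (adjusted p = 1.11e-07). The nanotubes did not differ detectably from each other, at -0.01 with a 95% interval from -0.11 to 0.09. Di-2-ANEPEQ libraries held 42.1, 43.8 and 44.3 CPM, and its call against Control (-0.20 ± 0.05, adjusted p = 0.027) was lost without Control replicate 1 or 3, at adjusted p of 0.23 and 0.105. It was likewise lost without Di-2-ANEPEQ replicate 1, 2 or 3, at adjusted p of 0.103, 0.0834 and 0.0633.

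S1pr1 (chr3:115710433-115715072), a receptor for sphingosine 1-phosphate, had 15.2, 16.4 and 15.5 CPM in Control and 7.01, 6.2 and 7.43 in LPS. It had 8.17, 8.56 and 9.14 CPM in (GT)6 SWCNT, 14.1, 14.6 and 14.7 in Fura-2, and 21.4, 20.5 and 21.7 in DiBASC2. The last 3 of these groups did not overlap, and S1pr1 fell against Fura-2 in (GT)6 SWCNT (log2 fold change -0.75 ± 0.09, adjusted p = 1.85e-08) and rose in DiBASC2 (0.55 ± 0.08, adjusted p = 6.36e-06). It was also the receptor with the widest gap between the nanotubes, at -0.55 ± 0.09 (adjusted p = 2.94e-05). Lpar5 (chr6:125067920-125082472), a receptor for lysophosphatidic acid, had 12.5, 10.7 and 12.9 CPM in Control, 4.73, 4.15 and 3.88 with LPS, 6.45, 6.62 and 6.68 with (GT)6 SWCNT and 7.93, 9.07 and 7.99 with COOH SWCNT. Its Fura-2 libraries held 13.7, 14.8 and 14 CPM, and it fell in both nanotube groups, at log2 fold changes of -1.11 ± 0.10 (adjusted p = 1.55e-11) and -0.77 ± 0.09 (adjusted p = 7.05e-08). Its value in DiBASC2 was -0.10, with a 95% interval from -0.27 to 0.07.

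P2ry1, a receptor for ADP, had a Control mean of 12.7 ± 0.666 CPM (SD, n = 3) and an LPS mean of 5.59 ± 0.607, and it fell in (GT)6 SWCNT against Fura-2 at a log2 fold change of -0.39. Gpr146, Gpr157 and Mrgpre, which have no agreed ligand, fell there too, at log2 fold changes of -0.34, -0.70 and -0.90. Of these 4, COOH SWCNT against Fura-2 called none, with log2 fold changes from -0.42 in Gpr157 to -0.02 in Gpr146.

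Transcription factors and cofactors numbered 14. Relative to Fura-2, 12 fell in (GT)6 SWCNT and 8 in COOH SWCNT (11.8% and 7.26% of all tested genes), while 3 rose in DiBASC2 (1.36%). Bhlhe41 (chr6:145858243-145865558), a basic helix-loop-helix repressor linked to the circadian clock, had 55.9, 50.6 and 48.8 CPM in Control and 10.3, 11.4 and 12.4 in LPS. It had 31, 31.8 and 31.9 CPM in (GT)6 SWCNT, 44.4, 43.2 and 43.3 in COOH SWCNT, 54.2, 52.2 and 54.8 in Fura-2 and 63.5, 61.6 and 67.0 in DiBASC2. The groups lined up in the order LPS, (GT)6 SWCNT, COOH SWCNT, Control with Fura-2, and DiBASC2, and only Control and Fura-2 overlapped among them. Against Fura-2 the log2 fold changes were -0.77 ± 0.05 (adjusted p = 2.52e-14), -0.30 ± 0.05 (adjusted p = 4.11e-05) and 0.25 ± 0.05 (adjusted p = 0.000949). Bhlhe41 was the 1 member that rose in AAV against Control, by 0.19 ± 0.05 (adjusted p = 0.0249), with 57.6, 60.1 and 58.8 CPM in AAV. That call was lost without Control replicate 2 or 3 (adjusted p = 0.084 and 0.15) and without AAV replicate 2 or 3 (adjusted p = 0.0956 and 0.067). It was lost as well with the trend on GC content and length removed (adjusted p = 0.0867). An exon of it overlaps Gm43909.

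Lyl1, a helix-loop-helix factor of blood progenitors, fell from a Fura-2 mean of 75.5 ± 0.79 CPM to 44.8 ± 1.64 in (GT)6 SWCNT and 61.8 ± 2.62 in COOH SWCNT (adjusted p = 1.05e-15 and 8.69e-06). The corepressor Irf2bp2 fell from 57.9 ± 0.702 CPM to 36.9 ± 1.5 and 48.6 ± 2.59 (adjusted p = 4.41e-12 and 0.000626). Ppargc1b, a coactivator of mitochondrial genes, fell at log2 fold changes of -0.95 and -0.56, and Cebpa, a factor of the myeloid lineage, at -0.71 and -0.45. Nr0b2 (chr4:133553376-133556536), a corepressor of nuclear receptors, was the least abundant of the 80 in Control, with 3.52, 2.60 and 2.99 CPM in Control, 1.52, 1.27 and 1.45 with LPS, 1.56, 1.5 and 0.937 with (GT)6 SWCNT and 2.35, 0.952 and 1.74 with COOH SWCNT. It fell in (GT)6 SWCNT (-1.21 ± 0.22, adjusted p = 4.42e-05) and COOH SWCNT (-0.88 ± 0.20, adjusted p = 0.00244) against Fura-2. Its call in COOH SWCNT against Control was lost without Control replicate 1 (adjusted p = 0.0547) or COOH SWCNT replicate 2 (adjusted p = 0.0574).

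Hhex (chr19:37434810-37440731), a homeobox factor of blood and liver development, had no call in a nanotube group. It had 36.5, 33.6 and 32.6 CPM in Control and 14.2, 18.2 and 15.8 in LPS, while (GT)6 SWCNT libraries held 31.7, 34.3 and 36.3, COOH SWCNT 36.3, 33.1 and 33.4, and DiBASC2 35.2, 33.3 and 30.2. The nanotube and DiBASC2 libraries overlapped those of Control. Its log2 fold change in (GT)6 SWCNT against Fura-2 was 0.04, with a 95% interval from -0.10 to 0.17. Lbh was the other factor with no call there, at -0.31 with an interval from -0.60 to -0.02 (adjusted p = 0.12).

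Zinc-finger proteins of the set fell in (GT)6 SWCNT against Fura-2 in 6 of 7 cases (11.8% of all tested genes). In COOH SWCNT 2 of 7 fell (7.26%), and 1 of 7 rose in DiBASC2 (1.36%). Zfp398 had 4.95, 5.32 and 3.79 CPM in Control, 2.99, 1.27 and 1.68 with LPS, 2.75, 3.01 and 3.11 with (GT)6 SWCNT, 4.76, 6.58 and 6.66 with Fura-2 and 6.93, 7.85 and 8.30 with DiBASC2. It fell in (GT)6 SWCNT against Fura-2 (log2 fold change -1.02 ± 0.19, adjusted p = 4.89e-05). It rose in DiBASC2 against Control (0.70 ± 0.16, adjusted p = 0.00648; 0.0616 without Control replicate 3) but was not called against Fura-2 (0.36, 95% interval from 0.05 to 0.67). In (GT)6 SWCNT against Fura-2, Zfp39, Zfp467 and Zfp324 also fell, at log2 fold changes of -0.99, -0.76 and -0.66. Zfp839 was the 1 that rose in DiBASC2 against Fura-2, by 0.30 ± 0.09 (adjusted p = 0.0433).

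Chromatin proteins numbered 4, among them Cbx2 and Cbx8, chromodomain subunits of Polycomb repressive complex 1, and Pwwp2b, which carries a chromatin-binding PWWP domain. Against Fura-2, 4 of 4 fell in (GT)6 SWCNT (11.8% of all tested genes), 3 of 4 fell in COOH SWCNT (7.26%) and 0 rose in DiBASC2 (1.36%). Cbx2 had 10.2, 12.3 and 10.9 CPM in Control and 5.87, 4.93 and 4.91 in LPS. It had 7.06, 7.87 and 7.85 CPM in (GT)6 SWCNT, 9.6, 9.42 and 9.81 in COOH SWCNT and 11.6, 12.7 and 13.1 in Fura-2. Both nanotube groups lay below Fura-2 without overlap, at log2 fold changes of -0.72 ± 0.10 (adjusted p = 7.07e-07) and -0.37 ± 0.10 (adjusted p = 0.00628). Cbx8 had an LPS level of 26.1% of Control and fell in (GT)6 SWCNT against Fura-2 at a log2 fold change of -0.69 ± 0.15 (adjusted p = 0.000443), and its value in COOH SWCNT was -0.26, with a 95% interval from -0.54 to 0.02.

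Ubiquitin ligases and their adaptors, with which the proteasome factor Midn was also placed, contributed 11 genes. Of these, 7 fell in (GT)6 SWCNT against Fura-2 (11.8% of all tested genes). In COOH SWCNT 3 fell and 1 rose (7.26% and 6.83%), while 2 rose in DiBASC2 (1.36%). Klhl21, a substrate adaptor of the cullin CUL3, had 39, 35.9 and 39.1 CPM in Control, 17.8, 19.1 and 18.2 with LPS, 23.3, 18.9 and 23.3 with (GT)6 SWCNT, 30.0, 31.4 and 31.1 with COOH SWCNT and 38.8, 40.3 and 39.6 with Fura-2. Its lowest (GT)6 SWCNT library lay within the range of LPS, and the log2 fold changes against Fura-2 were -0.86 ± 0.06 (adjusted p = 1.17e-13) and -0.36 ± 0.06 (adjusted p = 2.83e-05). Kbtbd11, a BTB-kelch protein, fell at log2 fold changes of -1.14 and -0.56 in the nanotube groups and rose by 0.29 in DiBASC2 (adjusted p = 0.0138). Rnf144b, a RING-between-RING ligase, had 28.5, 25.3 and 27.6 CPM in Fura-2, 25.2, 29.1 and 26.8 in (GT)6 SWCNT, 31, 31.1 and 34 in COOH SWCNT and 37.8, 36.6 and 40.8 in DiBASC2, where it rose by 0.50 ± 0.07 (adjusted p = 2.19e-05). Its rise in COOH SWCNT (0.24 ± 0.08, adjusted p = 0.0314) was lost without COOH SWCNT replicate 3 or Fura-2 replicate 2 or 3, at adjusted p of 0.123, 0.132 and 0.0501.

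Midn (chr10:80148272-80158368) encodes midnolin, which delivers immediate-early proteins to the proteasome. It had 22.7, 23.6 and 24.7 CPM in Control and 10.2, 10.1 and 10.1 in LPS, against 27.6, 26.9 and 22.3 in (GT)6 SWCNT, 25.4, 28.6 and 27 in COOH SWCNT and 26.2, 26 and 28.3 in Fura-2. The nanotube libraries overlapped those of Fura-2. The log2 fold change against Fura-2 was -0.06 in (GT)6 SWCNT, with a 95% interval from -0.21 to 0.09, and 0.00 in COOH SWCNT, with an interval from -0.14 to 0.15.

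Kinases and signalling adaptors were 9 of the 80. Relative to Fura-2, 6 of them fell in (GT)6 SWCNT and 4 in COOH SWCNT (11.8% and 7.26% of all tested genes), and 3 rose in DiBASC2 (1.36%). Map3k1, a kinase at the top of the JNK and ERK cascades, had 103, 106 and 110 CPM in Control, 49.1, 46.2 and 49.9 with LPS, 65.9, 73.3 and 69.5 with (GT)6 SWCNT, 107, 107 and 108 with Fura-2 and 120, 116 and 129 with DiBASC2. Among the groups just listed, only Control and Fura-2 overlapped, while the AAV and Di-2-ANEPEQ libraries overlapped those of Control. Map3k1 fell in (GT)6 SWCNT (log2 fold change -0.63 ± 0.05, adjusted p = 1.64e-13) and rose in DiBASC2 (0.17 ± 0.04, adjusted p = 0.0149). Map3k12, another kinase of that tier, and Inka1, an inhibitor of the kinase PAK4, fell in (GT)6 SWCNT at log2 fold changes of -0.86 and -1.03. Themis2, a signalling adaptor of macrophages and B cells, fell from 23.9 ± 0.955 CPM in Fura-2 to 13.4 ± 1.17 in (GT)6 SWCNT and rose to 30.0 ± 0.355 in DiBASC2 (adjusted p = 4.81e-12 and 0.000678). Sh2d3c, Cass4 and Cdk20 had no call in either nanotube group, with log2 fold changes of -0.05, -0.01 and 0.10 in (GT)6 SWCNT against Fura-2.

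Endosomal GTPase genes were Rin2, an exchange factor for RAB5, Dennd2c, and Rab7b, a late endosomal GTPase known to promote breakdown of the LPS receptor. Rin2 had 101, 110 and 103 CPM in Control, 46.9, 43.1 and 38.6 with LPS, 72.2, 71.6 and 76.6 with (GT)6 SWCNT and 100, 100 and 111 with Fura-2, and it fell in (GT)6 SWCNT at a log2 fold change of -0.50 ± 0.05 (adjusted p = 7.12e-10). Rab7b had 84.9, 79.1 and 81.5 CPM in Control and 37.6, 35.8 and 33.2 in LPS, but 81.2, 85.5 and 82.3 in (GT)6 SWCNT and 75.7, 79.7 and 82.3 in Fura-2. Its log2 fold change there was 0.07, with a 95% interval from -0.02 to 0.16. In DiBASC2 it rose by 0.22 ± 0.04 (adjusted p = 0.00077), with 90.7, 94.3 and 92.7 CPM.

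The 20 remaining genes are surface proteins, enzymes and genes of little known function. Relative to Fura-2, 16 fell in (GT)6 SWCNT and 5 in COOH SWCNT (11.8% and 7.26% of all tested genes), and 6 rose in DiBASC2 (1.36%). Tor4a, a torsin ATPase, had 90.2, 93.4 and 96 CPM in Control, 37.2, 39.1 and 37.7 with LPS, 51.7, 52.4 and 51.6 with (GT)6 SWCNT, 76.9, 79.96 and 81.2 with COOH SWCNT, 95.1, 91.7 and 90.2 with Fura-2 and 105, 111 and 109 with DiBASC2. Its groups stood in the order described for Bhlhe41, and Control and Fura-2 overlapped. Its difference between the nanotubes was -0.61 ± 0.04 (adjusted p = 1.03e-12). Fam78a had 9.56, 11.7 and 11.4 CPM in Control, 4.13, 2.93 and 2.38 with LPS, 5.63, 4.17 and 3.69 with (GT)6 SWCNT, 5.88, 7.11 and 6.36 with COOH SWCNT and 11.5, 13.1 and 11.6 with Fura-2. It fell against Fura-2 at log2 fold changes of -1.39 ± 0.14 (adjusted p = 5.78e-10) and -0.91 ± 0.13 (adjusted p = 3.2e-06), and its exons overlap those of Nup214 and Gm16534.

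Cd300lb and Thbd were among the genes lowest in LPS that the nanotubes moved little relative to Fura-2. Cd300lb, an activating receptor of myeloid cells, had 53.6, 47.7 and 50.4 CPM in Control and 11.8, 9.77 and 10.9 in LPS, and 46.9, 42.3 and 36.3 in (GT)6 SWCNT beside 46.2, 47 and 43.9 in Fura-2. Its log2 fold change against Fura-2 was -0.12, with a 95% interval from -0.26 to 0.02. The Control libraries, which helped choose the gene, had a mean of 50.6 CPM beside 45.7 CPM in Fura-2. Against Control the log2 fold changes were -0.26 in (GT)6 SWCNT and -0.23 in COOH SWCNT. Every library of both nanotube groups lay below every Control library. Cd300lb was called in a nanotube test, while Thbd was called in none. Thbd, thrombomodulin of the anticoagulant pathway, had 3.52, 3.66 and 3.95 CPM in Control and 0.924, 1.07 and 0.842 in LPS. It had 4.31, 4.04 and 4.16 CPM in (GT)6 SWCNT and 4.68, 4.27 and 4.27 in Fura-2 (-0.08, interval from -0.36 to 0.20). DiBASC2 held 5.85, 5.17 and 4.58 CPM, a rise against Control (0.49 ± 0.14, adjusted p = 0.0271) that was not called against Fura-2 (adjusted p = 0.374).

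Across the 4 tests of a nanotube group against Control or Fura-2, 13 of the 80 genes were called in none. They were Thbd, Midn, Rab7b, Sh2d3c, Sema4c, Ankrd55, Cass4, Lbh, Hhex, Cdk20, Kctd12b, Zfp493 and Kctd11. Of these, Thbd and Rab7b rose in DiBASC2 in at least 1 test. Lbh was lower in (GT)6 SWCNT than in COOH SWCNT (-0.42 ± 0.14, adjusted p = 0.0291). This leaves 10 called in LPS alone among the 11 comparisons, which do not include those with Di-2-ANEPEQ or AAV as comparator. In each of the 4 nanotube tests at most 11.8% of all tested genes were lower and at most 10.8% higher. Most genes thus had no call in any single one of them. The share of all tested genes called in none was not counted, so the 13 and the 10 have no background here. A missing call does not show that a gene was unchanged, and the intervals above give what the data allow.

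The rule's limits pass through a continuum of values. Just inside the ratio were Sall3 at 49.97% of Control, Kctd11 at 49.8% and Ankmy2 at 49.7%, and just outside were Prr12 at 50.1%, Tbc1d30 at 50.3% and Trim8 at 50.6%. At the limit on abundance, Nr0b2 (3.03 CPM in Control), Zc3hav1l (3.13) and Fbxo32 (3.54) were inside, and Gadd45g (2.98), Gm5431 (2.83) and A930004D18Rik (2.77) outside.

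The wider families of these genes were followed in LPS against Control with 11 lists, where 14.5% of all tested genes were called lower and 13.8% higher. These counts include the members, which the rule placed among the lower genes, so they are a description. Of 19 quiescence and FOXO-target genes 11 were lower and 6 higher, 3 of them members. Sesn1 went from 19.1 to 9.73 CPM and Tob1 from 14.4 to 8.14 CPM, while Btg2 went up from 25.6 to 103 CPM, Btg1 from 31.7 to 66.8 and Cited2 from 39.6 to 79.1 CPM. Of 33 haematopoietic transcription factors 22 were lower and 5 higher, 4 of them members, with Elf1 going from 78.1 to 56.0 CPM and Spi1, which encodes PU.1, going up from 290 to 373 CPM. Of 43 G-protein-coupled receptors 20 were lower and 13 higher, 7 of them members, with S1pr2 going from 43.2 to 22 CPM and the complement receptors C5ar1 and C3ar1 up from 60.5 to 131 and from 57.4 to 123 CPM.

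Among the other lists, lower and higher counts were 101 and 51 of 369 zinc-finger proteins, 23 and 17 of 116 chromatin regulators, 48 and 33 of 197 ubiquitin ligases and adaptors, 34 and 30 of 167 small-GTPase genes, and 19 and 10 of 74 phosphoinositide genes. They were 6 and 8 of 28 genes of TGF-beta and BMP signalling, 10 and 16 of 47 ITIM and ITAM receptors and lectins, and 4 and 4 of 16 p53 targets. Zfp36, which encodes a protein that destroys AU-rich messages, went up from 56.9 to 260 CPM, and Zfp36l2 of the same family went from 81.6 to 45.2 CPM. The median log2 fold change was -0.39 in the quiescence list, -0.30 in the haematopoietic factors and -0.33 in the receptors, beside -0.01 over all tested genes.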

How the data were processed

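Poly-A RNA of 24 libraries in 8 groups was measured by sequencing. The authors deposited raw read counts per gene, whole numbers with no normalization, and per the submitters' processing notes STAR 2.5.4b and the build GRCm38.p6 were used, in roles that the notes do not give. The counting tool, strand setting and annotation are not given in the sources used here. Symbols, gene types and positions came from GENCODE M21 (GRCm38), which 54809 of 54838 identifiers matched without their version (53947 with it) and 29 did not.

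The analysis used edgeR 4.0.16 under R 4.3.3: filterByExpr (13116 genes kept), TMM factors, and 1 quasi-likelihood model of all libraries with a mean per group (16 residual degrees of freedom). Each of 11 comparisons was tested two-sided with glmQLFTest and Benjamini-Hochberg adjustment over all tested genes. Adjusted p, standard errors and 95% intervals come from this model unless a left-out library or another setting is named. The standard errors and intervals were derived from the F statistic of the test. The biological coefficient of variation of the model was 4.12%. CPM are TMM-scaled, as mean ± SD of 3 libraries. Over the 24 pairs of replicates, counts differed by more than sampling noise (chi-square of 2.43 to 18.9 times its degrees of freedom).

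The 80 genes, the functional groups, the 11 gene lists, the motifs and the choice of Fura-2 as comparator were made with earlier results of these data known. Named genes are those with the lowest LPS ratio, the extremes of each comparison among called genes, the most abundant of each group, and those next to the thresholds. Genes named beyond this were chosen after their values were seen. Some members that this rule names are not reported here by name, and they stay in the counts. Exons were called overlapping from the annotation on either strand. Alternatives were DESeq2 1.42.0, other size factors and filters, a replicate block, a GC and length trend, fits of only the groups compared, a higher Control minimum, and leaving out each library.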

Additional observations from a re-analysis of the deposited data

How the results depend on the processing

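Leaving out each library in turn gave 59 to 62 genes lower in (GT)6 SWCNT against Control (62 with all libraries), 24 to 29 in COOH SWCNT against Control (34), 59 to 63 in (GT)6 SWCNT against Fura-2 (64), 22 to 26 in COOH SWCNT against Fura-2 (27) and 36 to 46 in (GT)6 SWCNT against COOH SWCNT (51). Higher counts in DiBASC2 were 14 to 21 against Control (22; the lowest without Control replicate 1) and 16 to 20 against Fura-2 (23). The count lower in Di-2-ANEPEQ against Control was 1 or 2 (2), and 1 without Control replicate 1 or 3 or any of the 3 Di-2-ANEPEQ libraries. Under the other settings these counts were 62 to 63, 33 to 36, 61 to 64, 25 to 30, 43 to 53, 22 to 26, 20 to 25 and 2, in the same order. In AAV against Control, 1 of the 80 was lower, in place of 0, with no low-count filter (Cd300lb), a mean of at least 50 counts (Mrm2), the GC and length trend removed (Rab7b) or only the groups compared (Cd300lb), and the cause was not tested. The list genes called in LPS numbered 433 to 453 without one library and 452 to 520 under other settings (488).

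The set itself held 74 to 79 genes without one Control or LPS library, 70 to 75 of them among the 80, 76 with DESeq2 size factors, 91 with upper-quartile factors and 45 with a Control minimum of 10 CPM, which by construction keeps fewer genes. Of the 50 members with no exon overlap, 39 were lower in (GT)6 SWCNT against Fura-2, beside 64 of all 80 and 11.8% of all tested genes. Among single named genes, 26 of 342 checks without one library and 1 of 456 checks under other settings lost the call, and none turned its direction. Both totals include checks in LPS against Control of the genes with the lowest LPS ratio. The rule chose those genes by the same libraries, so such checks could hardly fail, and none lost its call. The share lost among the other checks is therefore higher. No scaling moved the median of all genes by more than 0.1 in log2. Replicate numbers shared between groups gave correlations of deviations from -0.08 to 0.07, so no common shift was seen. These correlations cannot tell whether libraries of the same number were handled together. A replicate block gave 63 in place of 62 genes lower in (GT)6 SWCNT against Control and 33 in place of 34 in COOH SWCNT. Genes with few counts, down to 7 in an LPS library, carry wide intervals.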

Other observations

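The lists were also followed in comparisons without Control or LPS libraries. In (GT)6 SWCNT against Fura-2, where 11.8% of all tested genes were lower and 10.8% higher, 11 of 19 quiescence and FOXO-target genes were lower and 5 higher, and 17 of 33 haematopoietic transcription factors were lower and 5 higher. Chromatin regulators had 43 of 116 lower and 6 higher, zinc-finger proteins 82 of 369 lower and 24 higher, and ubiquitin ligases and adaptors 46 of 197 lower and 18 higher. The receptors that couple to G proteins split evenly, with 14 of 43 lower and 14 higher. In COOH SWCNT against Fura-2, where 7.26% were lower and 6.83% higher, these receptors had 1 lower and 14 higher, and phosphoinositide genes had 3 of 74 lower and 11 higher. Chromatin regulators had 15 of 116 lower and 5 higher there, and quiescence and FOXO-target genes 2 of 19 lower and 5 higher. In DiBASC2 against Fura-2, where 3.01% were lower and 1.36% higher, quiescence and FOXO-target genes also had 2 of 19 lower and 5 higher. The 5 include the members Arrdc3, Pik3ip1 and Txnip. Zinc-finger proteins had 2 of 369 lower and 11 higher there, and the receptors 7 of 43 lower and 1 higher. These counts include the members of the 80 that belong to each list, and no test of a list was made.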
